A study of Homo sapiens with 6 samples.

Results

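Hi-C domain calls leave long stretches of the HCT116 genome empty, and these stretches are described here in DKO1, a methyltransferase-deficient derivative, and in HCT116 itself. The domains listed for HCT116 on chromosomes 1 to 22 were merged where they overlapped or touched. Members were chosen by these HCT116 domain positions and by the presence of bins, not by the level of any score. A megabase gap was an uncovered stretch of 1 Mb or more between neighbouring merged intervals in which at least 90% of the 20 kb bins were present in the HCT116 compartment track. There were 390 such gaps among 1756 gaps of any length. DKO1 is a single cell line derived from HCT116, an established human colorectal cancer line. DKO1 is known to carry targeted disruptions of the DNA methyltransferase genes DNMT1 and DNMT3B. It was set against wild-type HCT116, and both lines grew in the same serum-supplemented medium, with no treatment given in the labels. Each line has 3 Hi-C libraries, whose labels name the same files, so each line has 1 pooled compartment track and 1 pooled domain list. No value therefore has a replicate error, no p-value was computed, and every difference between lines is a difference between 2 maps. Contact counts were not used here, and the sequencing depth behind each map is unknown. Positions are those of hg19 (GRCh37), and no gene is named because no annotation of that build was used here.

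Topologically associating domains are chromosome segments whose loci meet each other more often than loci outside, and many are formed by cohesin loops that stop at CTCF sites. At a larger scale, chromatin separates into the open, gene-rich and early-replicating compartment A and the closed, gene-poor and late-replicating compartment B, much of which lies at the nuclear lamina. In cancer cells, B chromatin overlaps widely with long partially methylated domains, where DNA methylation is already incomplete. The compartment score PC1 is the first principal component of the contact map, here with positive values read as A and negative values as B. The files do not state how this sign was set, so every A and B call below rests on that reading. Within each autosome the deposited PC1 has a mean of 0 and an SD of 1, so a PC1 of -1 means 1 SD below the chromosome's mean.

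The 390 megabase gaps were long and took up a large part of the autosomes. They spanned 982.28 Mb and held 36.9% of the autosomal bins of the HCT116 track. Their median length was 1880 kb, with quartiles of 1280 and 3270 kb, and 36 gaps were 5 Mb or longer. By contrast, most domains were small, and 95% of the HCT116 domains were at most 440 kb long. Lengths from 1 to 2 Mb were listed for 4 domains and lengths over 2 Mb for 17, up to 21440 kb. The presence of bins was required of gaps and not of domains, and was not examined in these 17. Most gaps between domains were shorter: of the 1712 gaps that passed the bin rule at any length, the megabase gaps were 22.8% by number and 68.3% by length. For comparison, 577 gaps of 200 to 400 kb passed the same bin rule and spanned 157.16 Mb.

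Chromosomes differed widely in how much of their length lay in megabase gaps. Chromosome 4 had the largest share, with 59.0% of its bins in 36 gaps. It was followed by chromosome 2 with 48.1% in 48 gaps, chromosome 5 with 47.6% in 28 gaps, chromosome 13 with 47.3% in 12 gaps and chromosome 8 with 47.1% in 24 gaps. At the other end, chromosome 22 had 0 gaps, chromosome 20 had 2 gaps with 4.29% of its bins, and chromosome 19 had 2 gaps with 7.81%. Chromosomes 17, 19 and 22 are known as gene-dense, and 4, 13 and 18 as gene-poor. Chromosome 18 had 40.4% of its bins in 9 gaps and chromosome 17 had 11.6% in 5 gaps. Of the megabase gaps, 13.1% lay within 10 Mb of either end of their chromosome's track, against 19.8% of the short gaps and 16.2% of autosomal bins.

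**Figure D1:**
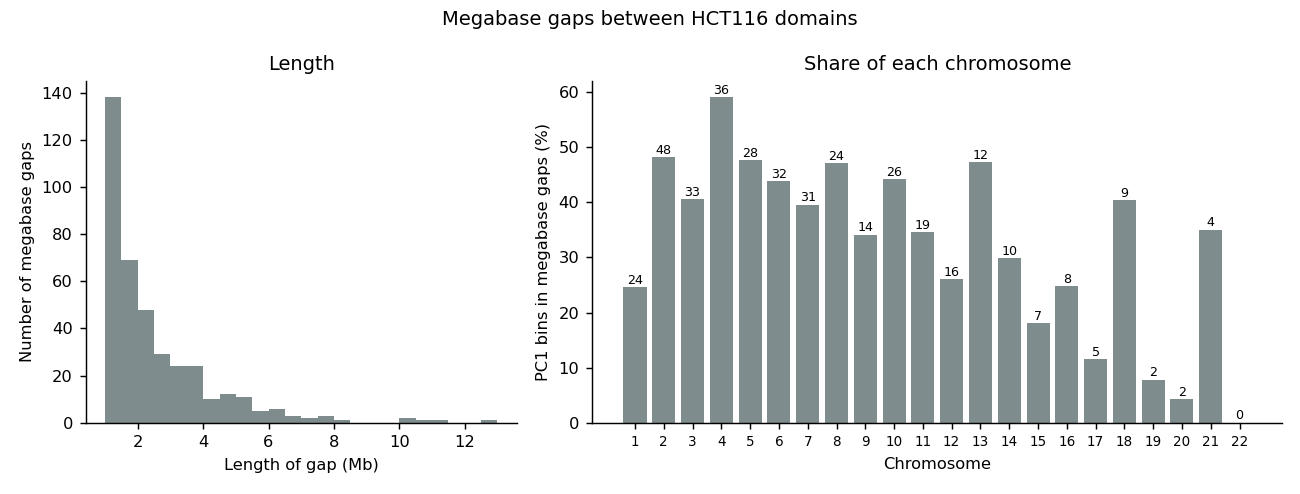
Length of the 390 megabase gaps in classes of 0.5 Mb (left) and the percentage of each chromosome's PC1 bins that lie in them (right; the number over each bar is the number of gaps). The upper quartile of length is 3270 kb, and the share of a chromosome ranges between 0 on chromosome 22 and 59.0% on chromosome 4.

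Both limits of the rule cut through a continuous range. Exactly 1 Mb was the length of 14 members, and 18 gaps of 960 kb, the next step on the 40 kb grid of the lists, fell outside. Just inside were the 1000 kb gaps at 89560001 to 90560000 of chromosome 10, with a mean PC1 of 0.25 in DKO1 and 0.36 in HCT116, at 108120001 to 109120000 of chromosome 13, with -0.32 and -1.61, and at 79880001 to 80880000 of chromosome 15, with -0.08 and 0.13. Just outside were the 960 kb gaps at 64720001 to 65680000 of chromosome 1, with 0.21 in DKO1 and 0.03 in HCT116, and at 38200001 to 39160000 and 40640001 to 41600000 of chromosome 13, with -0.65 and -1.69, and with 0.66 and 0.61. The bin rule removed 15 gaps of 1 Mb or more, and 381 of the 390 members had every bin present. The members with the fewest bins were at 51640001 to 54040000 of chromosome 10 (92.5%), 3680001 to 5040000 of chromosome 1 (94.1%) and 128200001 to 129240000 of chromosome 10 (94.2%). The gaps removed most narrowly were at 16280001 to 17840000 of chromosome 16 (89.7%), 71600001 to 72640000 of chromosome 7 (82.7%) and 22600001 to 23840000 of chromosome 15 (79.0%).

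Megabase gaps were mostly, but by no means wholly, compartment B. The median over gaps of the mean PC1 was -0.43 in DKO1 (quartiles -0.96 and 0.01) and -0.29 in HCT116 (quartiles -0.90 and 0.24). In gaps of 200 to 400 kb it was 0.70 in DKO1 (quartiles -0.06 and 1.14) and 0.71 in HCT116 (quartiles 0.03 and 1.04). On all 21 chromosomes that had megabase gaps, their median was below that of the short gaps of the same chromosome, in DKO1 as in HCT116. The mean was below 0 in 289 of the 390 megabase gaps in DKO1 and in 253 in HCT116, against 157 and 141 of the 577 short gaps. The ranges of the classes overlapped throughout, and megabase gaps ran between -2.13 and 1.38 in DKO1 and between -2.07 and 1.38 in HCT116. The HCT116 track comes from the same libraries as the list that chose the gaps, whereas the DKO1 track and list played no part in the choice.

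**Figure D2:**
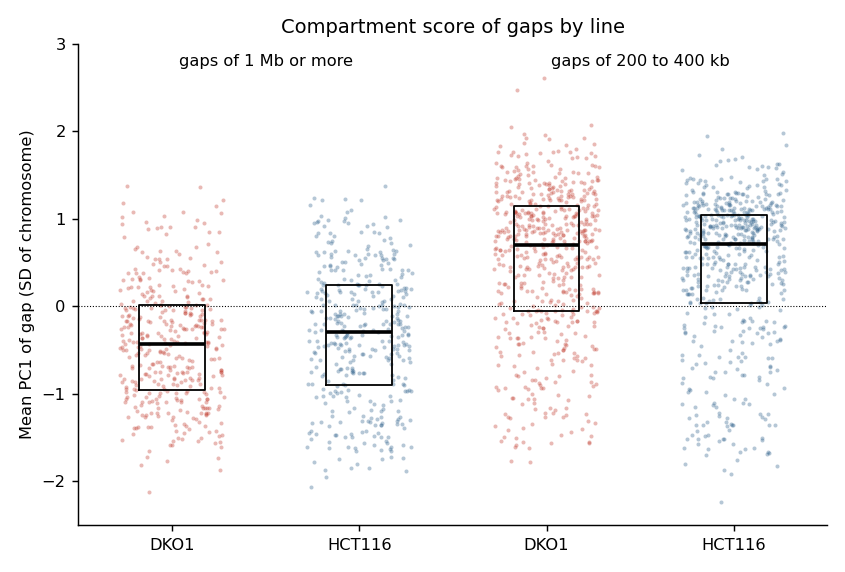
Mean PC1 of each gap in DKO1 (red) and HCT116 (blue), for the 390 gaps of 1 Mb or more and the 577 gaps of 200 to 400 kb, where each point is 1 gap, the box spans the quartiles and the thick line is the median. The medians of the long gaps, -0.43 in DKO1 and -0.29 in HCT116, lie below those of the short gaps, 0.70 and 0.71, while the point clouds overlap.

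Counted by bins, 75.7% of megabase gap bins were B in DKO1 and 66.4% in HCT116, or 74.6% and 70.6% after subtraction of each chromosome's median. In short gaps the shares were 27.7% and 25.6%, and inside HCT116 domains 36.4% and 35.6%. The megabase gaps thus held 54.9% of all autosomal B bins of DKO1 and 52.9% of those of HCT116. Most gaps held both compartments. Every bin was B in 79 gaps in DKO1 and in 74 in HCT116, every bin was A in 21 and in 47, and the other 290 and 269 were mixed. Of the 577 short gaps, 136 in DKO1 and 121 in HCT116 were mixed, and of the 1712 gaps of any length 669 and 596. These counts depend on length, since a longer gap has more bins in which both signs can occur. Changes of sign per 10 Mb numbered 17.9 in DKO1 and 16.5 in HCT116 in megabase gaps, and 16.3 and 11.3 in short gaps. Uninterrupted A stretches of at least 500 kb inside the gaps numbered 127 in DKO1 and 196 in HCT116. They lay in 112 and 166 of the gaps and added up to 130.6 and 237.88 Mb.

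Median scores were lower in longer gaps, up to the class of 3 to 5 Mb. The 138 gaps shorter than 1.5 Mb had a median of -0.14 in DKO1 and 0.04 in HCT116. The medians were -0.41 and -0.27 for the 69 gaps from 1.5 to 2 Mb, and -0.50 and -0.40 for the 77 gaps from 2 to 3 Mb. For the 70 gaps from 3 to 5 Mb they were -0.79 and -0.52, and for the 36 gaps of 5 Mb or more -0.79 and -0.46. Across the 390 gaps, length and mean PC1 had a Spearman rho of -0.31 in DKO1 and -0.26 in HCT116, as a description of gaps that share 2 maps and 21 chromosomes.

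Within 200 kb, PC1 varied less in megabase gaps than in short gaps, while over whole gaps it varied more. The SD over a whole gap had a median of 0.38 in DKO1 and 0.35 in HCT116 for megabase gaps and of 0.20 and 0.16 for short gaps. Since these gaps differ in length, the spread was also compared in pieces of 200 kb. In the 4759 complete pieces of the megabase gaps the median SD over bins was 0.14 in DKO1 and 0.11 in HCT116. In the 628 pieces of the short gaps it was 0.17 in DKO1 and 0.14 in HCT116. The spread was thus larger in DKO1 than in HCT116 in both classes of gap, and its part in the other differences was not tested. Over the bins of a megabase gap the 2 tracks had a median Pearson r of 0.74, with quartiles of 0.52 and 0.88, so most gaps kept the course of their score along the chromosome.

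The 10 longest gaps show that an empty domain list went with several different compartment states. None held a whole DKO1 domain. The longest, at 79120001 to 91720000 of chromosome 13, measured 12.6 Mb and was on average compartment A in HCT116, with a mean PC1 of 0.01 (SD over bins 0.45) in DKO1 and 0.47 (0.42) in HCT116. There 55.8% of bins were B in DKO1 and 5.59% in HCT116, and the tracks had an r of only 0.13. The 11.32 Mb gap at 98440001 to 109760000 of chromosome 5 had means of -0.42 in DKO1 and 0.16 in HCT116 but an r of 0.86, and its highest bin had 1.71 in DKO1 and 1.18 in HCT116. The next 3 gaps lay on chromosome 4, and they differed from one another. At 128680001 to 139600000 the lines nearly coincided, with means of -0.71 and -0.64 and an r of 0.94. At 27360001 to 37600000 the mean was -1.27 in DKO1 and -0.30 in HCT116, and an A stretch of up to 560 kb in HCT116 stood against one of at most 200 kb in DKO1. At 57720001 to 67960000 the means were -1.28 and -1.46, and in both lines 9980 kb formed an unbroken B stretch. This was the longest B stretch inside any megabase gap in either line.

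**Figure D3:**
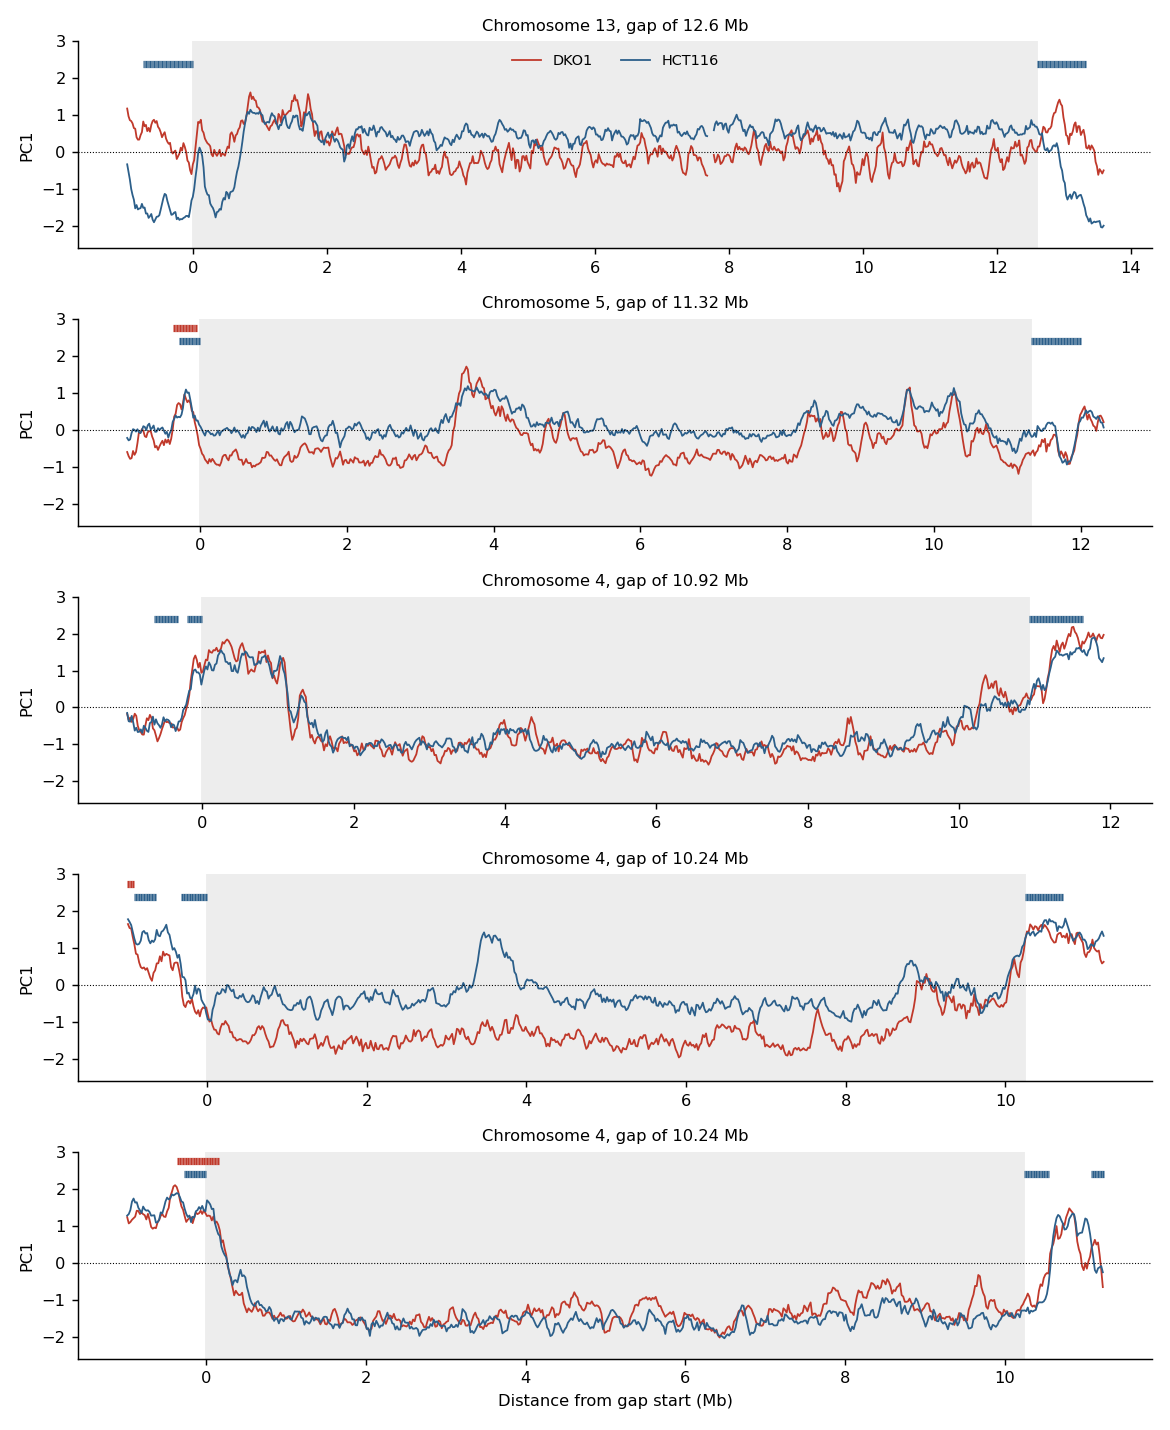
PC1 of DKO1 (red) and HCT116 (blue) in bins of 20 kb along the 5 longest megabase gaps (grey) and 1 Mb on each side, against the distance from the start of the gap in Mb, with bars at the top for bins in DKO1 (upper bar) and HCT116 (lower bar) domains. On chromosome 13 and in the first of the pair of 10.24 Mb gaps of chromosome 4 most of the DKO1 track lies below that of HCT116, while in the 10.92 Mb gap the tracks nearly coincide.

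The other 5 of the longest were as varied. The gap at 35160001 to 43240000 of chromosome 18 had means of -0.85 in DKO1 and -0.59 in HCT116, and of its 404 bins 93 were B in DKO1 and A in HCT116 and 8 the reverse. The gap at 79560001 to 87320000 of chromosome 3 had a mean of -1.09 in DKO1, where all of its 7760 kb was B, and -0.32 in HCT116. The gap at 110720001 to 118080000 of chromosome 8 stayed close to 0 in both, at -0.04 and 0.25, and 56.0% of its bins differed in sign. Deep B in both lines were the remaining 2, with 1.28% and 2.37% of bins of differing sign: 159880001 to 167680000 of chromosome 5 had -1.81 in DKO1 and -1.87 in HCT116, and 19320001 to 26920000 of chromosome 21 had -1.24 and -1.08.

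Between the lines, megabase gaps had a slightly lower PC1 in DKO1, but the sign of this difference depended on where 0 lies. The median of DKO1 minus HCT116 was -0.10 over the 390 gaps (quartiles -0.36 and 0.14) and 0.05 over the short gaps (quartiles -0.15 and 0.27). It was negative in 236 megabase gaps, or 60.5%, against 48.8% of the 1712 gaps of any length. When the median of each chromosome's track was subtracted, 179 of the 390 (45.9%) were lower in DKO1. The share over gaps of any length was not computed with this centring. The median difference became 0.03 in megabase gaps and 0.19 in short gaps. The megabase gaps thus stood below the short gaps in this difference under both centrings. With the deposited values the chromosome's median in megabase gaps was below 0 on 17 of 21 chromosomes and, in a separate count, below that of the short gaps on 17 of 21.

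Gap bins were also set beside other bins of the same chromosome and starting score, a comparison in which a shift of a whole chromosome's track largely cancels. In each of 6 classes of HCT116 PC1, DKO1 minus HCT116 was lower in megabase gaps than in the other autosomal bins. For bins from 0 to 0.5 the mean difference was -0.36 in megabase gaps and -0.07 elsewhere, and for bins from -0.5 to 0 it was -0.33 and -0.03. For bins above 1 it was -0.20 and 0.02, and for bins below -1 it was 0.24 and 0.45. Within chromosome and class, the gap bins differed from the other bins by -0.31, with the lower value in gaps on 19 of 21 chromosomes. Chromosomes 17 and 20, with 5 and 2 gaps, were the exceptions at 0.01 and 0.26. The value was -0.29 without chromosomes 5, 7 and 13. With classes of the mean PC1 of both lines it was -0.29, and with classes of DKO1 PC1 -0.15, on 19 and 18 chromosomes. This comparison was added after the values had been seen.

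**Figure D4:**
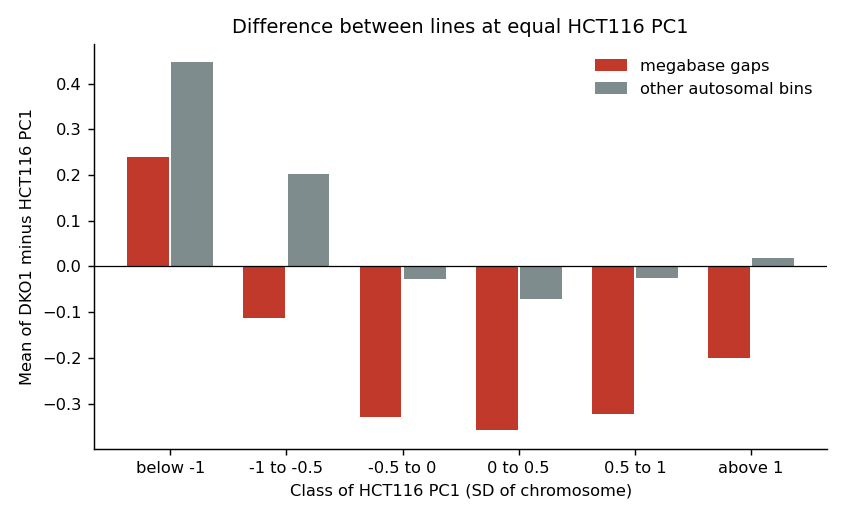
Mean of DKO1 minus HCT116 PC1 over the bins of each class of HCT116 PC1, for bins in megabase gaps (red) and all other autosomal bins (grey). The red bar is below the grey bar in all 6 classes, by the widest margin between -1 and -0.5, where the means are -0.11 and 0.20.

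Compartment calls depend on where 0 lies, and are given with both centrings. With the deposited values, bins that were B in DKO1 and A in HCT116 made up 12.9% of megabase gap bins, or 126.28 Mb, against 8.92% of all autosomal bins. Bins that were A in DKO1 and B in HCT116 made up 3.60%, or 35.3 Mb, against 4.4%. Of the A bins that HCT116 had in megabase gaps, 38.3% were B in DKO1, compared with 9.14% of those in short gaps and 9.19% of those in HCT116 domains. Of its B bins, 5.41% were A in DKO1, compared with 18.2% and 14.2%. Within the class of HCT116 PC1 from 0.5 to 1, the sign differed in 21.4% of bins in megabase gaps, 5.48% in short gaps and 6.20% outside megabase gaps. After subtraction of the chromosome medians, 8.92% of megabase gap bins were B in DKO1 and A in HCT116 and 4.89% the reverse, compared with 6.16% and 6.18% of all autosomal bins. Of the A bins of HCT116, 30.3% in megabase gaps and 6.29% in short gaps were then B in DKO1. With the deposited values the megabase gaps held 53.2% of all autosomal bins that were B in DKO1 and A in HCT116, and 30.2% of those that were A in DKO1 and B in HCT116.

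Over whole gaps, 237 had a mean below 0 in both lines and 85 a mean above 0 in both. A mean below 0 in DKO1 and above 0 in HCT116 was found in 52 gaps, or 13.3%, against 8.53% of gaps of any length, and the reverse in 16, or 4.10%, against 3.74%. A mean lower by at least 0.5 in DKO1 was found in 60 gaps (15.4%, against 9.23% of gaps of any length) and a mean higher by at least 0.5 in 29 (7.44%, against 11.3%). The order of these last counts turned round after subtraction of the chromosome medians, with 37 gaps lower (9.49%, against 5.84% of gaps of any length) and 54 higher (13.8%, against 20.5%). A mean below 0 in DKO1 and above 0 in HCT116 was then found in 32 gaps (8.21%, against 5.02% of gaps of any length). The reverse was found in 19 (4.87%, against 6.37%).

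Differences over 1 SD occurred in both directions. Of the 5 gaps that were lowest in DKO1 relative to HCT116, 3 were on chromosome 13. They lay at 63880001 to 68000000, with a mean of -1.54 in DKO1 and -0.20 in HCT116, at 68200001 to 70120000, with -1.46 and -0.27, and at 60240001 to 62640000, with -1.25 and -0.17. All bins of these 3 gaps were B in DKO1. The others were at 113400001 to 114520000 of chromosome 9, with -0.75 in DKO1 and 0.63 in HCT116, where every bin was A in HCT116, and at 128480001 to 130480000 of chromosome 5, with -1.08 and 0.12. In the other direction, the gap at 92440001 to 95040000 of chromosome 13 had -0.53 in DKO1 and -1.95 in HCT116, and the one at 22680001 to 24480000 of chromosome 4 had -0.26 and -1.63. Then came 76280001 to 77360000 of chromosome 9 with -0.20 and -1.49, 108120001 to 109120000 of chromosome 13 with -0.32 and -1.61, and 137520001 to 138600000 of chromosome 2 with -0.41 and -1.61. All 5 were deep in B in HCT116 and below 0 on average in DKO1, and between 5.56% and 32.0% of their bins differed in sign. Gaps of chromosome 13 are thus in both groups, and whether PC1 follows the same contact pattern in both lines there was not tested.

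The 5 gaps with the highest HCT116 PC1 were short, at 1.24 to 1.8 Mb, and were A throughout in DKO1. The highest, at 56200001 to 57440000 of chromosome 4, had a mean of 1.36 in DKO1 and 1.38 in HCT116. On chromosome 6 the gap at 14160001 to 15680000 had 0.90 and 1.24 and that at 107040001 to 108840000 had 1.08 and 1.23. The gap at 76080001 to 77320000 of chromosome 11 had 1.04 and 1.22, and that at 44960001 to 46680000 of chromosome 2 had 1.15 and 1.21. Stretches of high PC1 over 1 Mb long were thus without a whole listed domain in either line, although a DKO1 domain reached 80 kb into the first of them. Of the 5 lowest, 51480001 to 54800000 and 66480001 to 71440000 of chromosome 7 had -1.33 and -1.22 in DKO1 against -2.07 and -1.88 in HCT116. The gap at 47280001 to 48320000 of chromosome 15 had -1.59 in DKO1 and -1.85 in HCT116, with the smallest spread of these 10 gaps, at SDs of 0.07 and 0.06 over its bins. The other 2 of the lowest, on chromosomes 5 and 13, are given among the longest gaps and the largest differences.

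Few DKO1 domains were listed in the megabase gaps. Wholly inside lay 5 of its 1745 autosomal domains, or 0.29%, 1 in each of 5 gaps. These were 1.28% of the gaps, against 1.17% of the 1712 gaps of any length, whose median length was 360 kb, and 1.39% of the short gaps, so this share was near the background. Per 10 Mb of gap there were 0.05 whole DKO1 domains in megabase gaps and 0.51 in short gaps. By length, DKO1 domains covered 0.34% of the megabase gaps, 4.81% of the short gaps and 1.35% of the gaps of any length. They covered 18.7% of the autosomal bins, but these include the HCT116 domains, which gaps leave out by rule and where the cover was 40.2%. In gaps of 400 to 600 kb the cover was 1.92%, so its distance from that of the megabase gaps depended on which shorter gaps were taken. A DKO1 domain reached into or lay in 34 megabase gaps (8.72%, against 11.5% of gaps of any length). Of those 34 contacts, 29 were crossings of an edge, made by 28 domains, 21 of them by 40 kb, the step of the lists, and the farthest by 320 kb. The low cover was found at each level of the score. In bins with an HCT116 PC1 above 1 it was 1.49% in megabase gaps and 4.55% in short gaps, and in bins below -1 it was 0.10% and 3.31%. Short gaps have more edges for their length, and crossings of an edge were not set apart in these values. The DKO1 list is the shorter, with 1745 autosomal domains against 4086 in HCT116, and the part of its length or of unequal depth in this low cover was not tested.

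The 5 DKO1 domains wholly inside megabase gaps did not share a compartment. The domain at 231680001 to 231920000 of chromosome 2 had a mean PC1 of 1.18 in DKO1 and 1.14 in HCT116. The domain at 126080001 to 126320000 of chromosome 6 began at the gap's edge and had 1.24 and 0.67. The domain at 26840001 to 27200000 of chromosome 10 also began at an edge and had -0.30 and 0.50. At least 720 kb from either edge of their gaps were 77360001 to 77600000 of chromosome 1, with -0.09 and -0.31, and 118560001 to 118840000 of chromosome 3, with -0.03 and -0.57. PC1 was higher in DKO1 in 4 of the 5, and lower in the domain of chromosome 10. The domain reaching farthest across an edge was at 108800001 to 109240000 of chromosome 13, with 0.41 in DKO1 and -1.21 in HCT116. It covered 320 kb of a gap that is among the 5 with the largest positive difference.

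On average over the edges of megabase gaps, PC1 declined gradually into the gap, and single edges were not measured. Mean PC1 at 250 kb outside the gap was 0.02 in DKO1 and 0.00139 in HCT116, and it was -0.10 and -0.08 in the first bin inside. It declined to -0.34 and -0.25 at 250 kb inside and to -0.44 and -0.35 at 490 kb inside. At short gaps the average did not decline across the edge, being 0.37 in DKO1 and 0.29 in HCT116 at 250 kb outside and 0.48 and 0.40 in the first bin inside. The share of bins in a DKO1 domain was 20.8% in the last bin before a megabase gap, 3.98% in the first bin inside and 1.28% at 50 kb. At short gaps the shares were 34.7%, 8.78% and 3.81%, so that cover by DKO1 domains was lower in megabase gaps at equal distance from an edge.

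**Figure D5:**
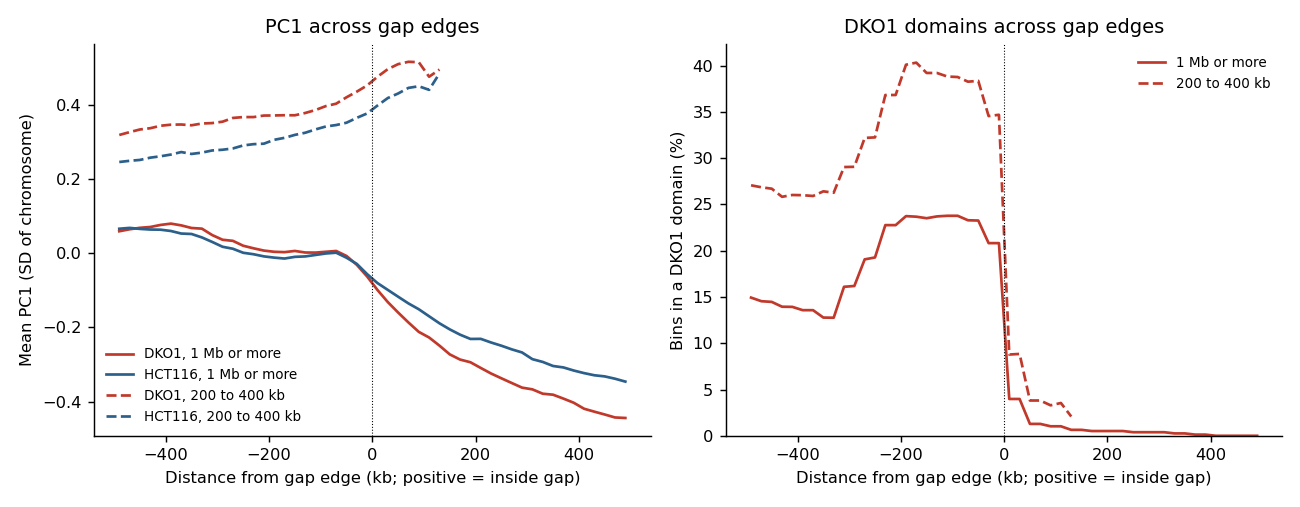
Mean PC1 (left) and percentage of bins in a DKO1 domain (right) by distance from the edge of a gap in kb, averaged over both edges of the 390 megabase gaps (solid) and the 577 gaps of 200 to 400 kb (dashed), for DKO1 (red) and HCT116 (blue) up to the centre of each gap and where at least 500 edge bins remain. In megabase gaps PC1 declines to -0.44 in DKO1 and -0.35 in HCT116 at 490 kb, and the share of bins in DKO1 domains drops to 1.28% at 50 kb.

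The HCT116 domains that border megabase gaps were matched in DKO1 less often than others. Of 710 such domains, 154 (21.7%) had a DKO1 domain with a reciprocal overlap of at least 80%, against 35.9% of all 4086 autosomal HCT116 domains and 35.7% of the 947 that border a short gap and no megabase gap. Fewer of them were in compartment A, with 53.4% against 69.9% of those 947. Among A domains alone, 29.6% of the 379 at megabase gaps were matched and 43.7% of the 661 at short gaps only. Among B domains, 12.7% of 331 and 16.9% of 284 were matched. The A domains at megabase gaps also had the lower score, with a median HCT116 PC1 of 0.69 against 0.95, and its part in the matching was not tested.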

How the data were processed

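Hi-C of DKO1 and HCT116 cells was analysed from 2 kinds of deposited file per line, each pooled over 3 libraries per the labels. The PC1 score per 20 kb bin was deposited by the authors. Its values centre on 0 with unit SD in every autosome, as computed here. The domain lists deposited by the authors hold only positions, in steps of 40 kb, and no other values. HiC-Pro and HOMER 4.6 are listed in the submitters' processing notes with hg19 (GRCh37) and without roles, and the domain caller is not given in the sources used here. Starts are printed 1-based.

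Domains were merged, gaps between neighbouring merged intervals were taken, and those with at least 90% of bins present in the HCT116 track were kept. The short gaps had to meet the same bin rule. A bin was B at a PC1 below 0. Differences used bins present in both tracks. Class comparisons used at least 20 other bins per chromosome and class. Regions named are the 10 longest gaps, the 5 highest and 5 lowest by HCT116 PC1, the 5 largest differences each way, the 5 with most DKO1 domains and the 3 on each side of each limit. The members, lists and rules were chosen with earlier results of these data known. With 1 pooled value per line no test was run. On simulated data, 603 of 603 planted gaps and 640 of 640 planted domains were returned. Regions carry no gene names or sequences, because no hg19 annotation or genome was used here. Python 3.11.15, numpy 2.4.6 and pandas 2.3.3 were used.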

Additional observations from a re-analysis of the deposited data

How the results depend on the processing

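The minimum length, the bin rule, the long domains, the centring, the chromosomes, the placing of domains and the overlap were varied as planned, while leaving out chromosomes 5, 7 and 13, the other classes and the sign calls with the other centring were added after seeing the data. Under the alternatives 136 values moved by no more than 0.1 in PC1, 1.5 times in counts, lengths and cover, 5 points in bin shares, or the Wilson interval at 95% in other shares, and 16 moved further without a turn of sign and 2 turned. No paired analysis was possible because each line has 1 pooled file, and no library could be left out. Depth limits cannot be stated, since no contact counts were used. A minimum of 1.5 Mb gave 252 gaps, 2 DKO1 domains inside, a cover of 0.20% and median PC1 of -0.60 in DKO1 and -0.43 in HCT116. Subtracting the chromosome median turned the median difference between lines to 0.0268. It also brought the share of gaps lower in DKO1 from a majority to 45.9%. This share counts among the 16, since a turn of sign was defined only for PC1 values. Among short gaps of 400 to 600 kb the median difference was -0.00972 and the cover by DKO1 domains 1.92%. Of bins beyond 0.5 from a PC1 of 0, B bins were 82.4% in DKO1 and 73.1% in HCT116. Classes of DKO1 PC1 gave -0.15 for the matched difference. At 90% overlap 15.1% of bordering domains were matched. With 100% of bins present, 85.8% of the gap length lay in gaps of the DKO1 list. The causes of these changes were not tested, beyond the smaller sets that the stricter limits leave.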

Other observations

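Islands of domains between megabase gaps varied widely in size. Of the 1778 merged HCT116 intervals on the autosomes, 123 had a megabase gap on both sides, and 70 of these islands held a single domain. Their median length was 400 kb, and the longest measured 4680 kb and held 3 domains. An island of 3920 kb on chromosome 4 was a single listed domain, so the largest sizes include domains over 2 Mb. The presence of bins inside such domains was not examined. Other merged intervals were not measured for comparison. The median PC1 of the islands was -0.06 in DKO1 and 0.08 in HCT116, and 82 islands in DKO1 and 80 in HCT116 were above the mean of their 2 neighbouring gaps. No DKO1 domain touched 87 of the 123 islands, and of their 243 HCT116 domains 20.6% were matched in DKO1 at 80% reciprocal overlap, against 21.7% of all domains that border a megabase gap and 35.9% of all autosomal domains.

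In the DKO1 list, megabase gaps ran across many of these islands. The same rule applied to the DKO1 list and track gave 437 gaps with a median length of 2640 kb, the longest of 42 Mb, against 390 with a median of 1880 kb in HCT116. The DKO1 gaps spanned 1820.36 Mb, where the autosomal bins present in both tracks span 2661.02 Mb, so they took up most of the autosomes. They took in 96.8% of the length of the HCT116 megabase gaps, and 346 of the 390 (88.7%) lay wholly inside a single DKO1 gap. Of the length of the DKO1 gaps, 52.2% was HCT116 megabase gap, against 36.9% of the autosomal bins. In 75 DKO1 gaps 2 or more HCT116 gaps were held together, and up to 7 in a single one. The DKO1 gaps contained 1687 whole HCT116 domains, which is 9.27 per 10 Mb, whereas the HCT116 gaps contained 5 whole DKO1 domains, or 0.05 per 10 Mb. The lists themselves hold 1745 autosomal domains in DKO1 and 4086 in HCT116, and the part of this difference in the lengths of the gaps was not tested.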
